A study of Drosophila melanogaster with 48 samples.

Results

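The stage change described here is the passage from prepupal to pupal wing in Drosophila melanogaster animals of the eGFP control line held at 29 °C. It compares the 4 arrays labelled as pupa, 29 °C, eGFP with the 4 labelled as prepupa, 29 °C, eGFP, which makes 8 of the 48 arrays of the series. The series measured wing RNA of 2 lines, 3 stages and 2 temperatures on Affymetrix Drosophila Genome 2.0 arrays, with 4 biological replicates in each of 12 groups. Each sample pooled wings of about 15 to 20 animals.

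Both groups had the genotype w; UAS-eGFP / + ; nabGal4NP3537 / Tub-Gal80ts. In this system Gal4 is made where the insertion in nab is active, Gal80ts blocks it at 19 °C, and at 29 °C the block is lifted, so that eGFP, an inert fluorescent protein, is made in the nab domain of the wing. The prepupae were wandering larvae moved from 19 to 29 °C through 1 h at 25 °C, which formed white prepupae 10 h later and were dissected at 6 h after puparium formation. The pupae were white prepupae collected at 19 °C, moved to 29 °C in the same way and dissected 16 h later, at 16 h after puparium formation. Both groups therefore spent 16 h at 29 °C, but over different parts of development. For side values the same stages were read in eGFP animals kept at 19 °C (12.5 h and 33.5 h after puparium formation, transgene off) and in animals of genotype w; UAS-UbxIa / + ; nabGal4NP3537 / Tub-Gal80ts at 29 °C. Ubx is the Hox gene that gives the haltere its identity.

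Pulses of the steroid hormone ecdysone time this part of fly metamorphosis. In the prepupa the wing disc turns inside out, its cells secrete the pupal cuticle, and a short mid-prepupal window marked by the nuclear receptor gene ftz-f1 separates 2 pulses. In the early pupa the epithelium detaches from that cuticle, and the cells complete their last divisions before veins form, hairs grow out and the adult cuticle is laid down. Much of the gene set below belongs to these steps: ecdysone receptors and their targets, chitin and cuticle proteins, apical matrix, cell junctions, and the signals that place veins and bristles.

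Values are log2 signals from the array after all 48 arrays had been set to a common distribution, and a difference is pupa minus prepupa on that scale, given with its standard error (SE) from the fit. A gene was read through its brightest probe set. A probe set was called when its adjusted p was under 0.05 in limma with Benjamini-Hochberg adjustment over 18769 probe sets, and "rose" and "fell" are used of called genes only. Replicate arrays correlated at 0.996 to 0.998 and arrays of the 2 stages at 0.903 to 0.908. Among the genes named here prepupal sample 1 was the outlying sample in 10 of 23 sets of 4 that held one, and without it 1617 probe sets rose and 1271 fell by 2-fold or more, against 1630 and 1264 with it. The deposited arrays shared their value distribution within a stage but not between stages, with array medians of 4.74 to 4.77 in prepupae and 4.34 to 4.41 in pupae, so that stage and any set in which the arrays were normalised cannot be told apart. No detection calls were given, and a mean under 5.02, which is the common array median plus 0.5, was treated as near background. A difference from or to such a mean does not give the size of the transcript's fold change.

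In all, 1630 probe sets (8.68%) rose and 1264 (6.73%) fell by 2-fold or more, and 65.3% of probe sets were called in either direction. Of the 2-fold calls 56.3% were rises, against 53.1% on the deposited values and 76.4% when arrays were only centred on their medians. Read by gene, 1297 of 11981 genes (10.8%) rose and 986 (8.23%) fell by 2-fold or more. At the 16-fold level the order was the other way round, with 97 genes higher and 192 lower. The prepupal mean was under the background limit for 481 of the 1297 genes that rose (37.1%), and the pupal mean was under it for 298 of the 986 that fell (30.2%). Prepupal and pupal arrays did not overlap at 58.6% of probe sets.

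**Figure D1:**
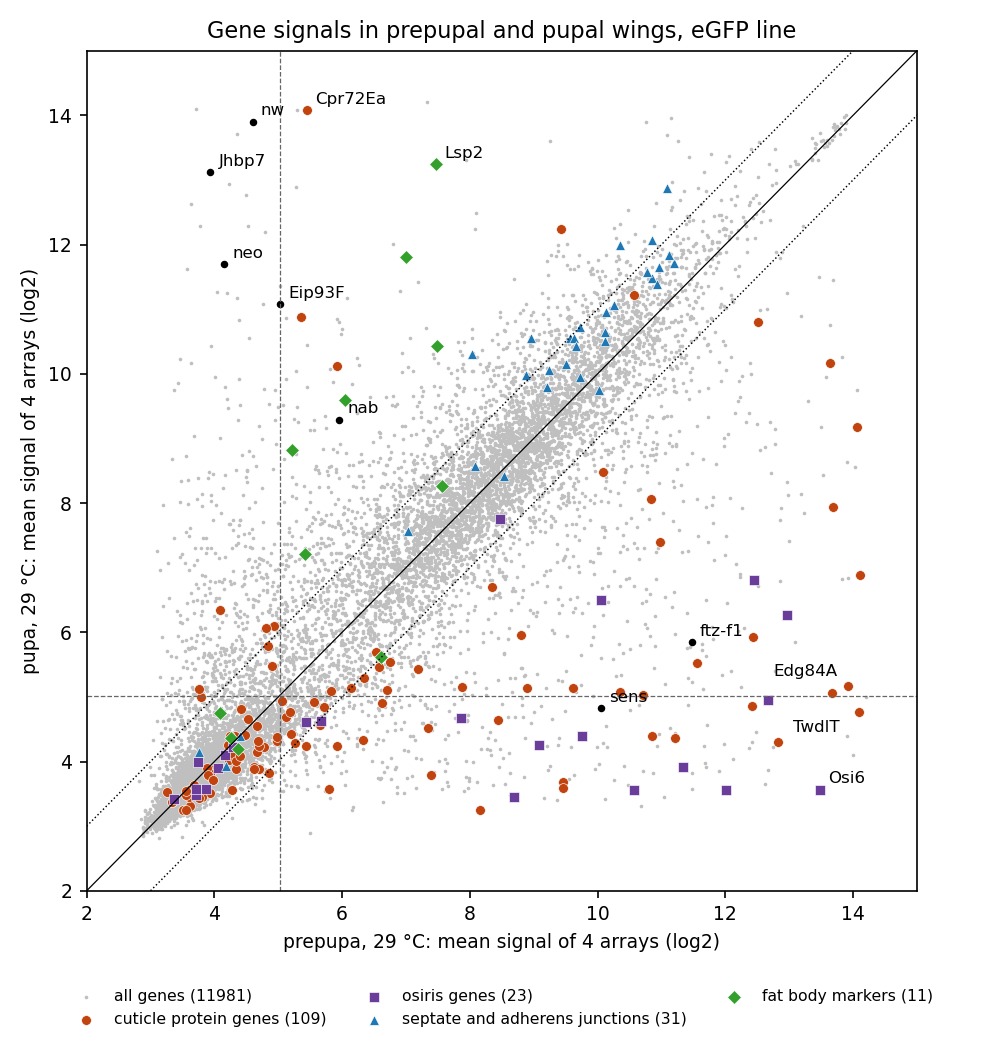
Mean log2 signal of 11981 genes in the 4 prepupal arrays (horizontal) and the 4 pupal arrays (vertical) of the eGFP line at 29 °C. The solid line marks equal signal, dotted lines a 2-fold difference and dashed lines the background limit of 5.02. Cuticle and Osiris genes lie mostly below the diagonal, and the genes nw, Jhbp7, neo and Cpr72Ea stand at the upper left.

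The wing identity of the samples was read from 7 measured wing markers. None of them was near background at either stage, and their summed linear signal was 5756 to 6397 in prepupae and 8009 to 9369 in pupae. The wing selector cofactor gene vg rose by 0.74 (SE 0.05), although another probe set differed by 0.23. The POU factor gene nub rose by 0.74 and the dorsal selector ap by 1.11, while dve fell by 0.66. The gene rn differed by -0.31, by 0.06 at another probe set, and was higher in pupae when arrays were centred on their medians. The intervein factor gene bs read 8.83 ± 0.08 (SD, n = 4) in prepupae and 8.81 ± 0.03 in pupae and was not called.

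The driver locus nab encodes a transcriptional cofactor of the developing wing. Its signal was 6.01, 5.95, 5.97 and 5.89 in the 4 prepupal samples and 9.33, 9.30, 9.37 and 9.15 in the 4 pupal samples. The groups lay far apart, and nab rose by 3.33 (SE 0.07, adjusted p = 4.23e-35). Its second probe set differed by 1.45. The larval mean at 29 °C was 7.25 ± 0.05 (SD, n = 4), between those of the later stages. The locus from which the Gal4 insertion is driven was thus read at a higher level in the pupal group.

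The largest rises mostly started near the background limit. The gene nw, whose mutation narrows the wing, read 4.46, 4.67, 4.79 and 4.46 in prepupae and 13.86, 13.93, 13.89 and 13.92 in pupae, a difference of 9.31 (SE 0.07, adjusted p = 2.28e-51). In larvae it had read 13.11, so that the prepupa was the low point of the 3 stages. Jhbp7, named for the juvenile hormone binding protein family, went from 3.93 ± 0.18 to 13.12 ± 0.07 (SD, n = 4), and Mur89F, a mucin-related gene, from 4.22 ± 0.12 to 12.94 ± 0.06. Neither had been above the limit in larvae, where their means were 3.95 and 4.20. The cuticle protein gene Cpr72Ea rose by 8.64, the odorant-binding protein family gene Obp56a by 8.05 and ltl, which encodes a secreted leucine-rich repeat protein, by 6.77. The gene bangles and beads, bnb, read 7.04, 7.56, 7.46 and 7.27 in prepupae and 14.20 in each of the 4 pupal samples, the top of the common scale, where differences are compressed.

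The largest falls ended near or under the background limit. Osi6, of the insect-specific Osiris family of membrane proteins of cuticle-secreting cells, read 13.64, 13.50, 13.46 and 13.34 in prepupae and 3.46, 3.36, 3.66 and 3.78 in pupae, a difference of -9.92 (SE 0.09, adjusted p = 1.1e-48). TwdlT, of the Tweedle family of cuticle proteins, fell from 14.10 ± 0.02 to 4.77 ± 0.21 (SD, n = 4). The cytochrome P450 gene Cyp303a1 fell by 8.96, from 12.62 to 3.66. Jhbp4, of the same named family as the rising Jhbp7, fell by 8.80. In larvae Osi6, Cyp303a1 and Jhbp4 read 3.31, 3.40 and 3.61, so that their signal was seen at the prepupal stage only among these 3 groups.

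The ecdysone regulators changed in both directions. Of 22 measured genes 6 rose and 7 fell by 2-fold or more, against 10.8% and 8.23% of all genes, and 5 were near background at both stages. Eip93F encodes the factor that marks the adult programme. It read 4.76, 4.92, 5.43 and 5.01 in the prepupal samples and 10.79, 11.10, 10.90 and 11.52 in the pupal samples, and rose by 6.05 (SE 0.12, adjusted p = 1.78e-36). Its larval mean of 2.88 was also low. The nuclear receptor gene Hr39 rose by 1.82 (SE 0.09), and the ecdysone receptor gene EcR by 1.01 (SE 0.09), from 8.90 ± 0.05 to 9.91 ± 0.13 (SD, n = 4). The gene of its partner, usp, read 8.40 ± 0.05 and 8.29 ± 0.03, a difference of -0.12 whose sign changed with the scaling of the arrays. Blimp-1, an ecdysone-induced repressor, rose by 1.38, and the receptor genes Eip78C and Hr78 rose by 1.25 and 1.12.

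Among the regulators that fell was broad, br, which specifies the pupal programme. It read 12.24, 12.23, 12.19 and 12.26 in prepupae and 6.94, 7.31, 6.64 and 6.71 in pupae, and fell by 5.33 (SE 0.15, adjusted p = 1.89e-30), with lower values at its other 4 probe sets as well. The competence factor gene ftz-f1 went from 11.47 ± 0.10 to 5.85 ± 0.24 (SD, n = 4), a difference of -5.62 (SE 0.20, adjusted p = 2.29e-27). Its second probe set differed by only -0.04, so that the change rests on the brighter one. E23, an ecdysone-induced transporter gene, fell by 4.27, and the receptor gene Hr3, an activator of ftz-f1, fell by 2.61 to a mean of 2.89. Cyp18a1, whose enzyme inactivates ecdysone, fell by 2.04 (SE 0.20). Hr4 fell by 1.62, but its probe sets disagreed.

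The juvenile hormone response genes were read mostly under the limit. Met, a receptor of that hormone, fell by 1.45 (SE 0.07). Its relative gce read 4.24 ± 0.08 and 4.07 ± 0.15 (SD, n = 4) and the response gene Kr-h1 2.91 ± 0.05 and 3.04 ± 0.07, all under the limit and not called. A second probe set of gce differed by 0.10. Kr-h1 had read 9.99 in larvae. The genes chinmo, Hr51 and Hr38 were also not called, with differences of 0.25, 0.04 and -0.13. The second probe set of Hr38 differed by -3.05.

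**Figure D2:**
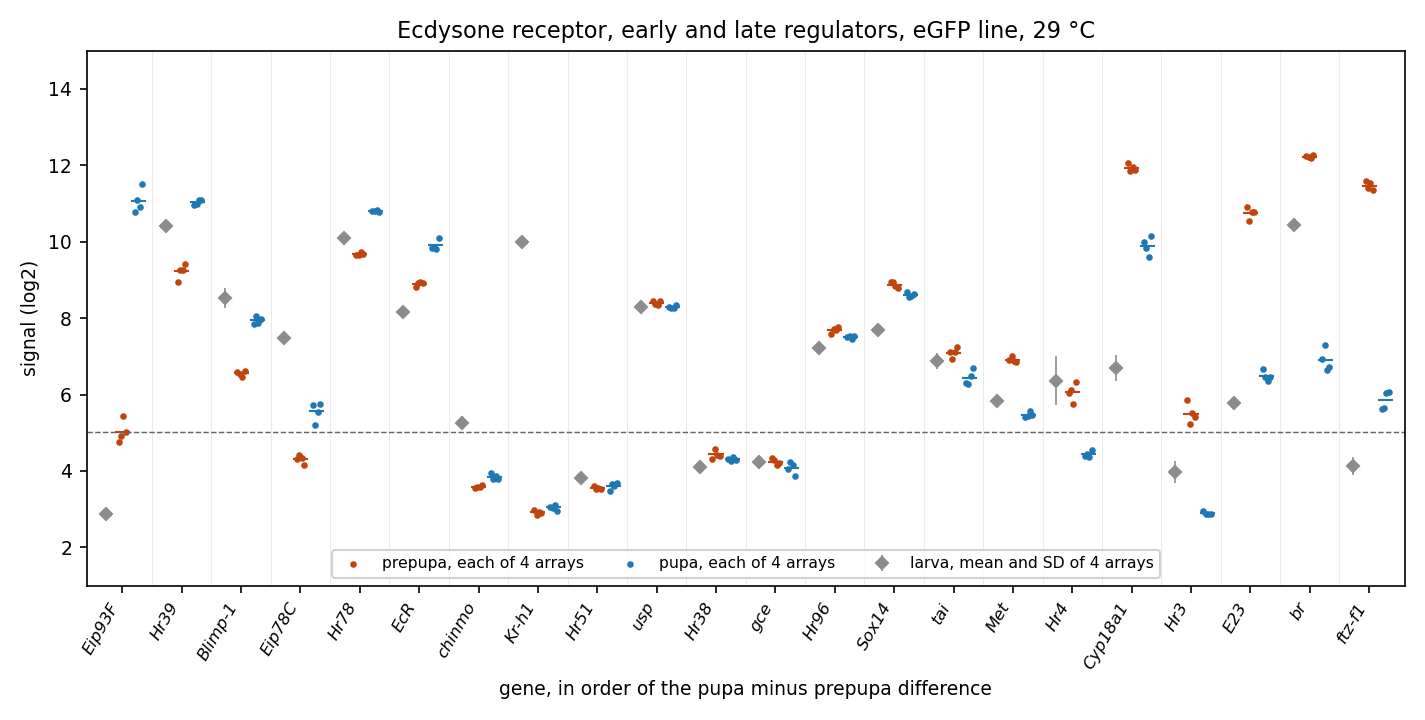
Log2 signal of the 22 measured ecdysone regulators in the eGFP line at 29 °C, ordered by the pupa minus prepupa difference. Grey diamonds are larval means with SD, orange and blue points the 4 prepupal and 4 pupal arrays with their means as bars, and the dashed line is the background limit of 5.02. Eip93F stands at the left with a rise of 6.05, and br and ftz-f1 at the right.

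Genes long known as ecdysone-inducible in discs and in prepupal cuticle followed 2 patterns. Among 16 measured 4 rose and 6 fell by 2-fold or more, against 10.8% and 8.23% of all genes. The cuticle genes Edg84A and Edg78E, which depend on the mid-prepupal window, were high in the prepupa. Edg84A read 13.72, 14.02, 14.00 and 13.97 in prepupae and 5.25, 4.99, 5.07 and 5.35 in pupae and fell by 8.76 (SE 0.12, adjusted p = 2.64e-43). Edg78E fell by 6.51 and Edg91, a glycine-rich cuticle gene, by 6.03. The secreted disc proteins of the Imp group diverged: ImpE2 rose by 2.80 (SE 0.07) while ImpE3 fell by 2.71 and ImpE1 by 2.29. ImpL2, an antagonist of insulin signalling, rose by 1.89. Eig71Ej rose by 3.82, but its 4 pupal samples read 7.09, 5.55, 6.09 and 9.13 and so varied more than those of the other genes above.

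Cuticle protein genes were the largest group measured, with 109 members. Of these 43 fell and 9 rose by 2-fold or more (39.4% and 8.26%, against 8.23% and 10.8% of all genes), and 47 were near background at both stages. The median difference was -0.60, against 0.01 for all genes. Besides TwdlT and Edg84A, Cpr65Ec fell by 8.62 (from 13.67 ± 0.07 to 5.06 ± 0.11, SD, n = 4), Twdlbeta by 8.52 and TwdlC by 7.55. Against that trend Cpr72Ea read 5.33, 5.63, 5.16 and 5.65 in prepupae and 14.13, 14.07, 14.05 and 14.07 in pupae, and Cpr49Ah rose by 4.21 (SE 0.11).

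None of the 23 Osiris genes rose by 2-fold, and 13 (56.5%) fell by that much, against 10.8% and 8.23% of all genes. Their median difference was -3.18. After Osi6 came Osi15, from 12.01 ± 0.07 to 3.55 ± 0.05 (SD, n = 4), and Osi7, from 12.68 ± 0.24 to 4.94 ± 0.11. Osi20, Osi19 and Osi2 fell by 7.41, 7.01 and 6.70. The Osi2 signal differed between the pupal samples, which read 5.87, 5.96, 6.09 and 7.14. Another 8 members were near background at both stages.

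Chitin genes fell more often than they rose, with 14 lower (45.2%) and 5 higher (16.1%) by 2-fold or more of 31. Of all genes 8.23% fell and 10.8% rose by that much. The median of the list was -0.73. The chitin-binding protein gene obst-E read 11.66, 11.64, 11.66 and 11.67 in prepupae and 5.10, 5.13, 5.09 and 5.16 in pupae, a difference of -6.54 (SE 0.07, adjusted p = 1.02e-47). Genes of the chitin deacetylases verm and serp fell by 5.48 and 5.26; verm stood at 14.03 in every prepupal sample. The chitin organiser gene exp fell by 6.06, Gasp by 3.62 and mmy, which makes the sugar nucleotide for chitin, by 2.98. The chitin synthase gene kkv itself changed little, from 12.48 ± 0.03 to 12.76 ± 0.04 (SD, n = 4), a rise of 0.28 that was a fall on the deposited values. The chitinases parted: Cht5, a moulting chitinase, rose by 4.38 (SE 0.20) from prepupal values of 6.70, 7.58, 5.96 and 7.40, while Cht6 fell by 4.95.

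Genes of zona pellucida domain proteins, which tie the apical cell surface to the matrix, moved in both directions. Of 10 measured 3 rose and 2 fell by 2-fold or more, against 10.8% and 8.23% of all genes. The gene neo read 4.07, 4.39, 3.99 and 4.16 in prepupae and 11.67, 11.82, 11.68 and 11.62 in pupae and rose by 7.55 (SE 0.10, adjusted p = 1.89e-43), and tyn rose by 3.39. In contrast dyl, which shapes wing hairs and bristles, read 12.16, 11.89, 11.77 and 11.76 in prepupae and 3.91, 3.83, 3.82 and 3.87 in pupae and fell by 8.04 (SE 0.07, adjusted p = 7.07e-49). Its relative dy fell by 6.06. The genes pio and pot, which hold the wing surface to the cuticle together with Dumpy, read 11.79 and 11.91 in prepupae and differed by only 0.26 and 0.13. Both differences turned negative on the deposited values, and 1 further probe set of pio was lower in pupae.

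**Figure D3:**
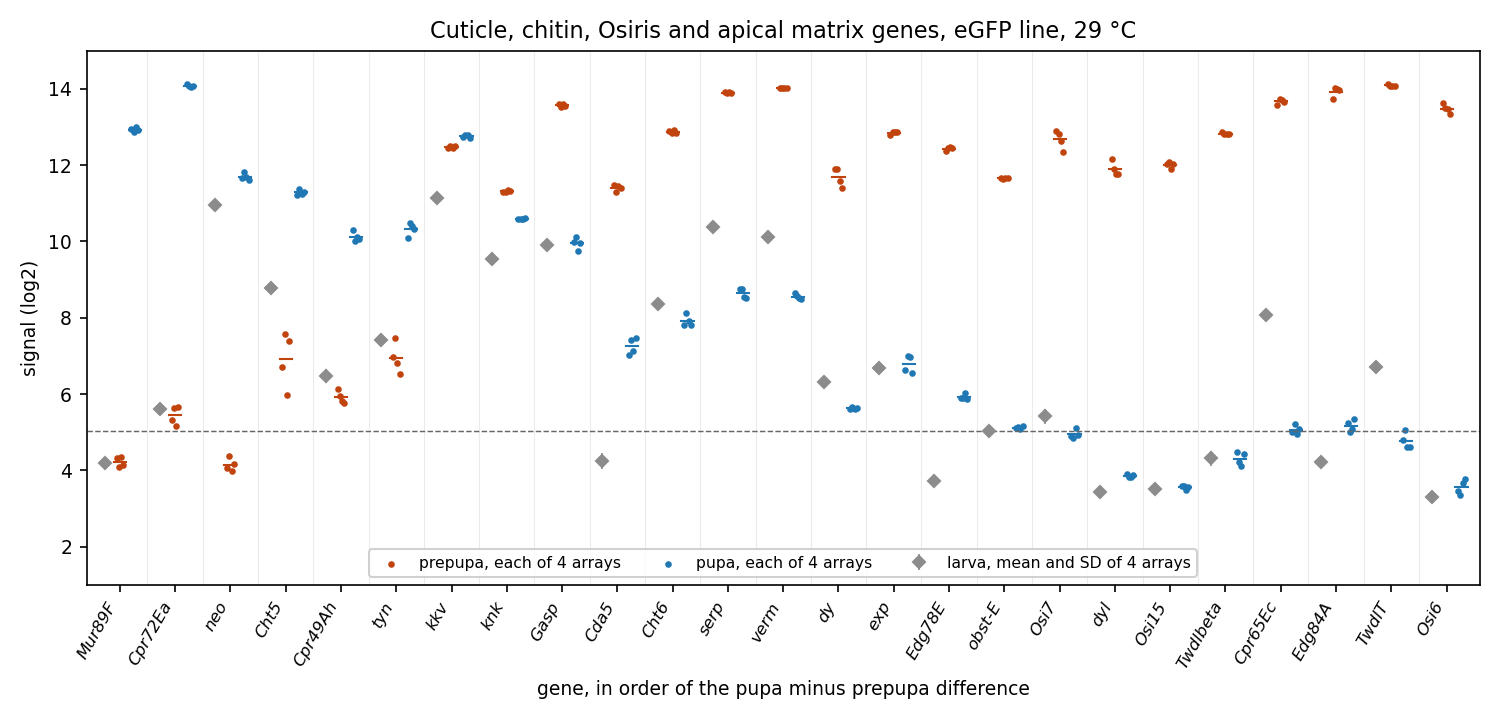
Log2 signal of 25 cuticle, chitin, Osiris and zona pellucida domain genes in larval (grey, mean and SD), prepupal (orange) and pupal (blue) wings of the eGFP line at 29 °C. Each point is an array, bars are means and the dashed line is the background limit of 5.02. Osi6, TwdlT and Edg84A at the right drop to about the limit or under it, whereas Cpr72Ea, Mur89F and neo at the left start there.

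Enzymes that tan and colour cuticle fell in 7 and rose in 3 of 18 cases by 2-fold or more. That is 38.9% and 16.7%, against 8.23% and 10.8% of all genes. Pu, which starts synthesis of the cofactor for tyrosine hydroxylase, read 9.42, 8.59, 8.57 and 8.84 in prepupae and 4.37, 4.40, 4.14 and 4.53 in pupae and fell by 4.49 (SE 0.38, adjusted p = 5.99e-14). Members of the yellow family, yellow-h and yellow-d, fell by 3.86 and 3.58. The dopa decarboxylase gene Ddc fell by 1.94 (SE 0.40) and the laccase gene stw by 1.54. The gene speck, an N-acetyltransferase gene of the same pathway, rose by 2.36. The gene ebony, e, was not called, with 6.40 ± 0.42 and 6.63 ± 0.47 (SD, n = 4).

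Genes of wing hair formation and the actin cytoskeleton rose more often, with 9 higher and 4 lower by 2-fold or more of 29. That is 31.0% and 13.8%, against 10.8% and 8.23% of all genes. Among the genes that restrict each wing cell to a single hair, in (inturned) read 5.58, 5.61, 5.63 and 5.74 in prepupae and 8.31, 8.33, 8.24 and 8.12 in pupae and rose by 2.61 (SE 0.08, adjusted p = 4.58e-30). Its partner fy rose by 1.16, and mwh rose by 2.28 from a level under the limit, with a second probe set at -0.18. The fascin gene sn, whose protein bundles actin in bristles and hairs, rose by 1.60 and the actin nucleator gene spir by 2.30 (SE 0.21). The prepupal samples of spir were uneven, at 8.21, 8.39, 7.17 and 7.07. The formin genes form3 and DAAM fell by 3.18 and 1.94. The gene wdp, also placed in this list, fell by 4.65, but these data do not show a part of wdp in hairs or actin.

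Planar polarity genes had 2 rises and 1 fall by 2-fold or more of 8, against 10.8% and 8.23% of all genes. Vang read 9.43, 9.38, 9.40 and 9.42 in prepupae and 10.85, 10.96, 10.91 and 10.92 in pupae and rose by 1.50 (SE 0.05, adjusted p = 6.72e-27). The cadherin genes ds and stan rose by 1.14 and 0.77. The kinase gene fj was not called, at 9.89 ± 0.11 and 9.91 ± 0.07 (SD, n = 4), and app, a palmitoyltransferase gene, fell by 1.08.

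Cell junction genes rose broadly and by small steps. Of 31 measured septate and adherens junction genes 27 were called higher and 2 lower, against 37.0% and 33.6% of all genes; 6 rose by 2-fold or more and none fell by that much. Their median difference was 0.69. The septate junction gene nrv2 read 8.05, 7.75, 8.06 and 8.26 in prepupae and 10.16, 10.33, 10.23 and 10.49 in pupae, a rise of 2.27 (SE 0.08, adjusted p = 6.1e-28). Lac rose from 11.10 ± 0.07 to 12.88 ± 0.02 (SD, n = 4), scrib by 1.64, cora by 1.61 and Cont by 1.22. E-cadherin, shg, rose by 0.50.

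Mitotic genes rose more often than they fell. Of 33 measured 9 rose by 2-fold or more (27.3%) and none fell by that much, against 10.8% and 8.23% of all genes. Nuf2, of the kinetochore, read 6.56, 6.65, 6.73 and 6.85 in prepupae and 8.41, 8.37, 8.35 and 8.08 in pupae and rose by 1.60 (SE 0.07, adjusted p = 3.61e-23). Incenp and aurB, of the chromosomal passenger complex, rose by 1.53 and 1.20, the cyclin gene CycB by 1.19, and the spindle checkpoint genes Bub3 and Mad1 by 1.33 and 1.23. Genes of DNA replication showed fewer changes of that size, with 2 rises and 1 fall by 2-fold or more of 42. Their median difference was -0.12, but 0.05 on the deposited values and 0.44 when arrays were centred on their medians. The direction of this list therefore depended on the scaling. RfC3 rose by 2.03 and dUTPase by 1.30, whereas Cdk4 fell by 1.14 and the helicase genes Mcm2 and Mcm5 by 0.60 and 0.47, calls that were lost when arrays were centred on their medians. Larval means of CycB, Nuf2 and RfC3 were 10.99, 8.58 and 8.20, closer to the pupal than to the prepupal values.

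Among wing selector, pouch and hinge factors 6 of 26 rose by 2-fold or more and none fell by that much. Of all genes 10.8% rose and 8.23% fell by 2-fold or more. Besides nab, the POU factor gene pdm2 rose from 8.05 ± 0.04 to 10.32 ± 0.13 (SD, n = 4) and the hinge factor genes zfh2 and tsh rose by 2.26 and 1.43 from means under the limit. The tsh signal was uneven in pupae, at 5.14, 6.37, 6.43 and 5.52.

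In a list of anterior-posterior and Hedgehog pathway genes 4 of 14 rose by 2-fold or more (28.6%, against 10.8% of all genes). The ligand gene hh read 9.80 ± 0.03 and 9.83 ± 0.10 (SD, n = 4) and the receptor and target gene ptc 6.01 ± 0.19 and 5.81 ± 0.11, and neither was called. The acyltransferase gene rasp, needed for an active ligand, read 5.65, 5.63, 5.77 and 6.09 in prepupae and 8.23, 8.25, 8.44 and 8.10 in pupae and rose by 2.47 (SE 0.09, adjusted p = 2.51e-27). The coreceptor gene ihog rose by 1.76, shf, which aids ligand spread, by 1.46, and the effector gene ci by 1.19.

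Dpp and activin signalling genes had 9 rises and no fall by 2-fold or more among 25 measured (36% rises). Of all genes 10.8% rose and 8.23% fell by 2-fold or more. The median of the list was 0.82. The ligand gene dpp differed by -0.18 (SE 0.07), a small fall that was not seen under either other scaling. The tolloid-like protease gene tok, whose product frees BMP ligands, read 5.28, 5.04, 4.73 and 4.40 in prepupae and 9.38, 9.56, 9.40 and 9.76 in pupae and rose by 4.66 (SE 0.12, adjusted p = 9.09e-33), and its relative tld rose by 1.32. The crossvein gene cv and the secreted modulator magu rose by 1.51 and 1.64. On the receiving side the receptor gene tkv rose by 0.71, the signal transducers Mad and Smox by 1.08 and 1.23, and the target and inhibitor gene Dad from 10.48 ± 0.05 to 11.34 ± 0.01 (SD, n = 4). The activin ligand gene daw rose by 2.38 (SE 0.15).

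Of only 6 measured Wingless pathway genes wls, which carries the ligand to the surface, rose by 1.35 and the target gene nkd by 1.20, while the ligand gene Wnt6 fell by 1.69 (SE 0.06). In the Notch group 4 rose and 3 fell by 2-fold or more of 22, against 10.8% and 8.23% of all genes. Without prepupal sample 1 or without pupal sample 2, 2 rose by that much. The inhibitor gene numb rose by 1.11. All 3 genes that fell belong to the E(spl) complex of Notch targets: E(spl)m7-HLH read 9.71, 9.60, 9.38 and 9.43 in prepupae and 8.34, 8.12, 8.04 and 7.95 in pupae, and E(spl)m2-BFM and E(spl)m4-BFM fell by 1.27 and 1.07.

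EGFR signalling and vein genes rose in 8 and fell in 1 of 21 cases by 2-fold or more (38.1% and 4.76%). Of all genes 10.8% and 8.23% did so, and the median of the list was 0.63. The intervein repressor gene net read 5.14, 5.22, 5.22 and 5.51 in prepupae and 8.49, 8.83, 8.83 and 8.89 in pupae and rose by 3.49 (SE 0.12, adjusted p = 4.45e-28). The repressors of EGFR target genes cic and aop rose by 2.74 and 1.35 and the pathway inhibitor sty by 1.24. The vein patterning gene kn rose by 1.48, although a second probe set differed by -0.21. The feedback inhibitor and target gene aos fell by 1.33 (SE 0.07). The receptor gene Egfr itself changed by -0.22, and was higher in pupae when arrays were centred on their medians.

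Genes that start sensory organs fell more often than they rose. The senseless gene sens, which drives sensory organ precursors, read 10.05, 10.09, 10.02 and 10.06 in prepupae and 4.67, 5.03, 4.68 and 4.91 in pupae and fell by 5.23 (SE 0.12, adjusted p = 3.68e-34). The downstream genes phyl and ase fell by 2.70 and 1.81, and the repressor gene hry (hairy) by 2.32. The proneural genes ac and sc fell less, by 0.42 and 0.86, and ac was not called under either other scaling. In the group of 22, 5 fell and 2 rose by 2-fold or more, against 8.23% and 10.8% of all genes. Markers of neurons and glia ran the other way at 2-fold or more, with 6 of 20 higher (30.0%) and none lower, against 10.8% and 8.23% of all genes. Called without regard to size were 11 higher and 5 lower, against 37.0% and 33.6% of all genes. Of the 20 genes 12 were near background in prepupae and 8 at both stages. The neuronal genes elav and fne rose by 1.91 and 2.61 and the glial gene repo by 2.22, fne and repo from means under the limit. The summed signal of these markers was 2422 to 2570 in prepupae and 3159 to 3336 in pupae.

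Genes of integrin adhesion and basal matrix fell in 8 and rose in 2 of 31 cases by 2-fold or more. That is 25.8% and 6.45%, against 8.23% and 10.8% of all genes. The adhesion adaptor gene parvin read 10.75, 10.77, 10.70 and 10.72 in prepupae and 8.92, 8.91, 8.93 and 8.92 in pupae and fell by 1.82 (SE 0.04, adjusted p = 1.45e-35); its partner Ilk fell by 1.91. The integrin subunit genes scb and mys fell by 2.08 and 0.69. The collagen IV genes vkg and Col4a1 fell by 2.33 and 2.28 and the protease inhibitor gene Timp by 1.68. Vinculin, Vinc, was an exception and rose from 8.58 ± 0.02 to 10.78 ± 0.05 (SD, n = 4). The laminin gene LanA and the matrix protease gene Mmp2 were not called, with differences of -0.02 and -0.11, and 0.03 at a second probe set of Mmp2.

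Heat shock and stress genes were measured after an equal time at 29 °C in both groups. The small heat shock gene Hsp27, which is also under ecdysone control, read 10.48, 10.90, 10.86 and 10.82 in prepupae and 13.89, 13.88, 13.88 and 13.93 in pupae and rose by 3.13 (SE 0.06, adjusted p = 4.65e-38). Hsp26 rose by 1.46 and Hsc70-3, a chaperone of the endoplasmic reticulum, by 1.48, while the cochaperone gene stv fell by 1.33. In all 4 of 15 rose and 1 fell by 2-fold or more, against 10.8% and 8.23% of all genes.

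Of 31 measured death and autophagy genes 3 rose (9.68%, against 10.8% of all genes) and 1 fell by 2-fold or more. The Bcl-2 family gene Buffy read 3.73, 3.84, 3.86 and 3.78 in prepupae and 8.02, 8.09, 7.78 and 7.89 in pupae and rose by 4.14 (SE 0.11, adjusted p = 1.8e-31), and the death inducer gene skl rose by 2.74, both from under the limit. The caspase genes Dcp-1 and Dronc rose by 1.21 and 0.60. Atg1, the kinase that starts autophagy, fell by 1.14.

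Sugar metabolism genes fell in 6 and rose in 2 of 18 cases by 2-fold or more (33.3% and 11.1%). Of all genes 8.23% and 10.8% did so, and the median of the list was -0.89. The aldolase gene Ald1 read 12.71, 12.79, 12.79 and 12.81 in prepupae and 9.25, 9.09, 9.18 and 9.07 in pupae and fell by 3.62 (SE 0.06, adjusted p = 3.24e-40). The trehalase gene Treh fell by 2.03, the trehalose transporter gene Tret1-1 by 2.28 and Pgi by 1.38. Of growth regulators foxo fell by 2.60 and the kinase gene hpo rose from 8.43 ± 0.08 to 10.61 ± 0.03 (SD, n = 4).

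Changes by 2-fold or more were few among genes of the ribosome and of respiration, where 10.8% of all genes rose and 8.23% fell. None of 41 cytoplasmic and none of 71 mitochondrial ribosomal protein genes rose by 2-fold, and 1 and 2 fell by that much. Of 74 genes of oxidative phosphorylation 2 fell and none rose by 2-fold or more. Near background at both stages were 5 cytoplasmic ribosomal, 19 oxidative phosphorylation and 11 proteasome genes, where changes could be missed. Others, such as RpLP1 at 13.81 and 13.88, lay near the top of the scale, where differences are compressed. The proteasome had 4 rises (10.5%) and 1 fall by 2-fold or more of 38, and 27 of its genes were called higher and 6 lower (37.0% and 33.6% of all genes), with Prosalpha6 at 1.33 and the germline form Rpt3R at -1.75. Tetraspanin genes fell in 6 (18.8%) and rose in 3 (9.38%) of 32 cases by 2-fold or more, and 15 were near background at both stages. Tsp74F read 11.79 ± 0.06 and 7.97 ± 0.12 (SD, n = 4), a fall of 3.82, and Tsp42Ea fell by 2.97.

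Markers of tissues other than the wing epithelium were read for the whole of each list. The fat body list differed most: its summed signal over 11 genes was 808.8 to 1147 in prepupae and 12840 to 21400 in pupae, and 6 of 11 genes rose by 2-fold or more. The storage protein gene Lsp2 read 7.92, 7.01, 7.52 and 7.40 in prepupae and 13.53, 13.13, 12.89 and 13.42 in pupae, a difference of 5.78 with a wide SE of 0.61 (adjusted p = 3.8e-11). The lipoprotein gene apolpp rose by 4.82 (SE 0.52), Lsd-1 by 3.61 and Fbp1 by 2.94. Across the pupal samples these genes were highest in sample 1 and lower in samples 2 and 3. Antimicrobial peptide genes rose in 6 of 13 cases by 2-fold or more, against 10.8% of all genes. Their pupal values were uneven: Def read 7.24, 5.66, 6.69 and 8.18 and Drs 8.56, 7.38, 6.75 and 7.82. The part of fat body RNA in these and other rises was not tested. In bulk tissue fewer cells of a type and less RNA per cell cannot be told apart.

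Blood cell markers had 3 rises and 3 falls by 2-fold or more of 25, against 10.8% and 8.23% of all genes. The summed signal of the list, 6087 to 6431 in prepupae, overlapped with 5239 to 6161 in pupae. Of all its genes 9 were called higher and 13 lower. The receptor gene Pvr rose by 2.88, NimC2 by 3.07 and the factor gene srp by 1.86. The falls were those of the collagen genes vkg and Col4a1, by 2.33 and 2.28, and of Hml, by 1.11. Muscle markers had a summed signal of 1683 to 1828 and 1720 to 1869, also overlapping. The muscle genes Mlc2 and Act88F rose by 4.48 and 3.90 from under the limit, bt fell by 3.10, and the myoblast gene twi stayed at 3.99 ± 0.05 and 4.02 ± 0.19 (SD, n = 4). Of 15 salivary gland markers none changed by 2-fold and 14 were under the limit in pupae. The summed signal of the tracheal list was 58320 to 59380 in prepupae and 17850 to 19410 in pupae, but verm, serp and Gasp, which the wing epithelium also uses for its cuticle, are among its 14 genes.

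**Figure D4:**
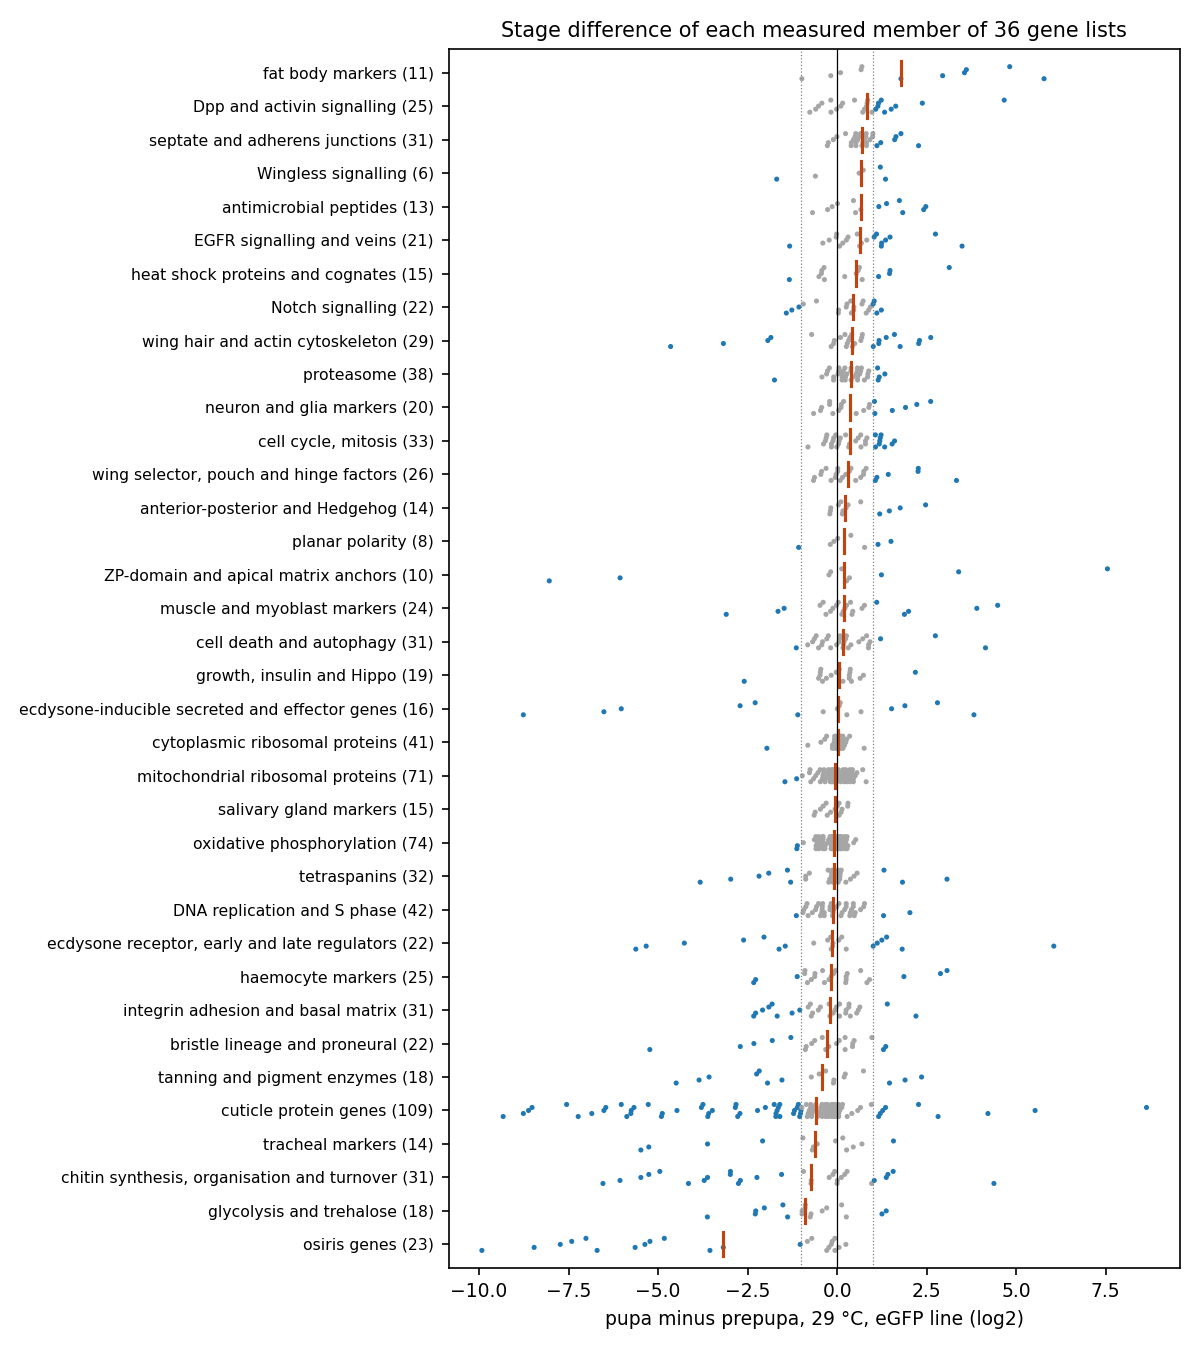
Pupa minus prepupa difference (log2) of each measured member of 36 gene lists, ordered by the median (orange bar), with the number of measured members in brackets. Blue points differ by 2-fold or more and dotted lines mark that size. Osiris genes lie lowest with a median of -3.18 and fat body markers highest with 1.78.

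Scaling of the arrays bears on the smaller shifts. When arrays were centred on their medians, the rises by 2-fold or more increased from 9 to 16 among mitotic genes, from 6 to 18 among junction genes, from 9 to 14 in the Dpp group, from 4 to 9 in the Notch group (with 0 falls), from 2 to 8 among replication genes, from 4 to 11 in the proteasome, from 3 to 9 among death and autophagy genes, from 4 to 7 among heat shock genes, from 1 to 3 among growth regulators and from 0 to 7 among mitochondrial ribosomal protein genes (with 0 falls in place of 2). On the deposited values these counts were 9, 8, 8, 3, 2, 4, 4, 4, 1 and 0. Falls by 2-fold or more went from 3 to 1 among muscle markers and from 2 to 0 in oxidative phosphorylation on centred arrays, and from 0 to 2 among salivary gland markers on the deposited values.

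The same stage change was next set against that of the eGFP line at 19 °C, where the transgene is off and the stages were taken at 12.5 h and 33.5 h after puparium formation. The comparison asks where the stage change depends on the temperature regime. At 19 °C 1494 genes (12.5%) rose and 1142 (9.53%) fell by 2-fold or more. Rises of that size numbered 1005 at both temperatures, which is 77.5% of those at 29 °C and 67.3% of those at 19 °C. Falls numbered 763 at both, 77.4% and 66.8%. A set of 7 genes rose at 29 °C and fell at 19 °C by 2-fold or more, and 7 did the reverse. Across 11981 genes, which are not independent replicates, the stage differences correlated at 0.881. The stage change itself differed between temperatures at 6115 genes (51.0%), and by 2-fold or more at 513 genes upward (4.28%) and 420 downward (3.51%). Of the probe sets called at 2-fold in this difference 55.7% were higher at 29 °C, against 66.8% on the deposited values.

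The stage difference of cuticle genes was often lower at 29 °C. Of 109, 21 had a stage difference at least 2-fold lower than at 19 °C and 4 at least 2-fold higher. Of all genes 3.51% and 4.28% did so. Edg84A read 10.85 ± 0.26 in prepupae and 6.17 ± 0.12 in pupae at 19 °C (SD, n = 4), a fall of 4.68, against 8.76 at 29 °C, and the changes differed by -4.09 (SE 0.16, adjusted p = 1.52e-23). Cpr65Ec fell by 4.02 and 8.62, Edg91 by 1.68 and 6.03. Cpr72Eb turned its direction, with a rise of 3.32 at 19 °C and a fall of 2.78 at 29 °C (difference -6.10, SE 0.33, adjusted p = 2.86e-19). Its prepupal samples at 29 °C read 9.53, 11.37, 11.20 and 11.24, with the first lower than the rest. Osiris genes were divided, 8 higher and 4 lower by 2-fold or more in this difference, and Osi9 fell by 3.55 at 29 °C and 7.20 at 19 °C. Osi12 read 3.37, 3.33, 3.41 and 3.37 in prepupae at 29 °C, under the limit, and 7.75 ± 0.11 (SD, n = 4) in prepupae at 19 °C, while both pupal groups were under the limit. Its stage changes differed by 4.36 (SE 0.11, adjusted p = 1.13e-30), and those of Osi8 by 3.61 (SE 0.17, adjusted p = 1.46e-21).

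Genes outside the cuticle also differed. The matrix gene tyn rose by 3.39 at 29 °C and differed by 0.07 at 19 °C, and the protease gene tok rose by 4.66 and 1.16. The actin nucleator gene spir rose by 2.30 at 29 °C but changed by -0.63 at 19 °C, and form3 fell by 3.18 at 29 °C with a difference of 0.14 at 19 °C. The intervein gene net rose less at 29 °C, by 3.49 against 5.57. ImpE1 fell by 2.29 at 29 °C and by 5.86 at 19 °C. Large differences also lay at genes known by number: CG13082 rose by 4.33 at 29 °C and changed by -1.26 at 19 °C, and CG6426 rose by 2.56 and 8.41. Mitotic genes had a median stage difference of 0.97 at 19 °C and 0.35 at 29 °C, with no member differing by 2-fold between temperatures. The regimes differ in temperature, in transgene activity and in the time chosen for each stage, and these cannot be told apart.

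**Figure D5:**
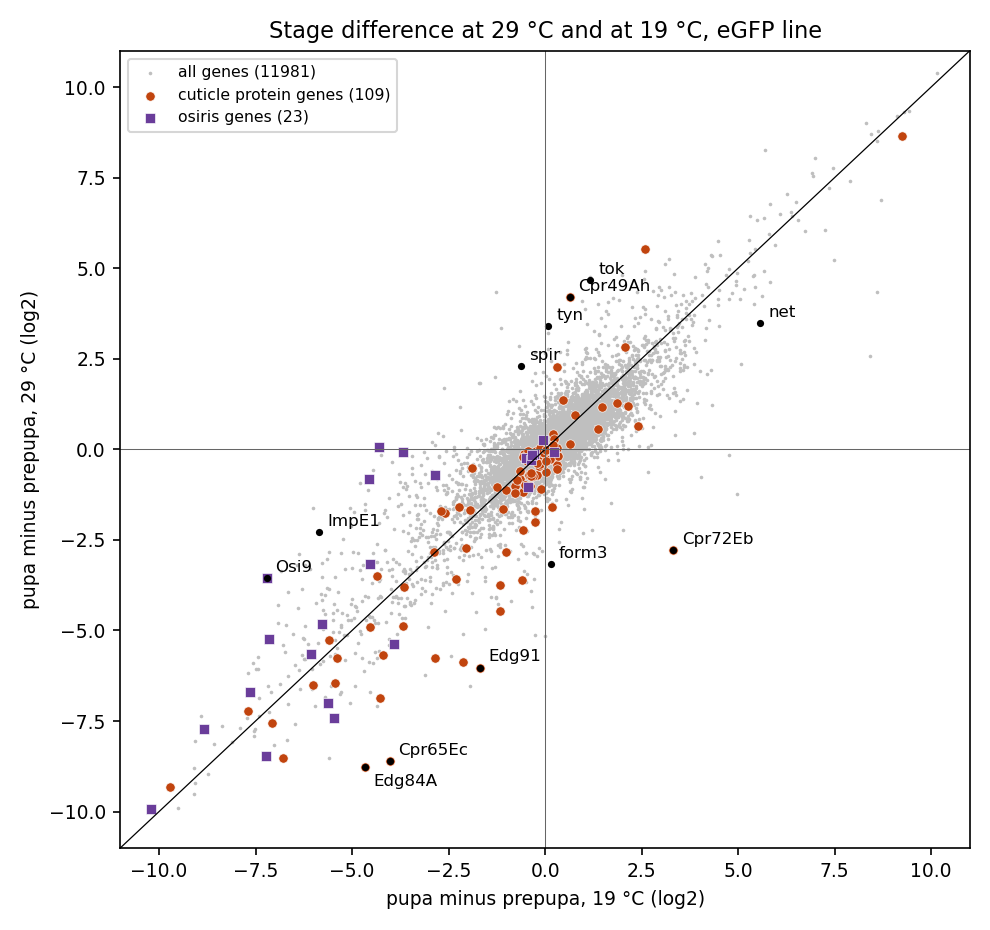
Pupa minus prepupa difference (log2) of 11981 genes in the eGFP line at 19 °C (horizontal) and 29 °C (vertical), with the line of equal change. Points lie along the line, with Edg84A, Cpr65Ec and Edg91 below it on the left side and tyn, tok and spir above it.

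Set against the Ubx line at 29 °C, which had the same temperature regime, the stage change differed at 1337 genes (11.2%) when called without regard to size. It was at least 2-fold higher in the eGFP line at 60 genes (0.501%) and at least 2-fold lower at 76 (0.634%). The activin ligand gene daw read 5.30, 5.41, 4.88 and 5.11 in eGFP prepupae and 7.76, 7.33, 7.33 and 7.78 in eGFP pupae, a rise of 2.38, whereas in the Ubx line it went from 8.71 ± 0.36 to 7.36 ± 0.23 (SD, n = 4), and the changes differed by 3.73 (SE 0.21, adjusted p = 1.54e-17). The fat body gene Fbp2 rose by 3.56 in the eGFP line and differed by 0.48 in the Ubx line. The median stage difference of the 11 fat body markers was 1.78 in the eGFP line and 0.69 in the Ubx line. Of these markers 1 had a stage change that differed by 2-fold or more between the lines. The part of fat body RNA in this difference was not tested. Lst, which encodes a peptide that restrains insulin release, fell by 6.12 in the eGFP line and by 3.50 in the Ubx line. The genes js and Nna1 differed the same way, with stage differences of 0.99 and -1.44 in the eGFP line and 3.97 and 0.99 in the Ubx line. CG4000 showed the largest negative difference, -5.90, with pupal eGFP samples at 7.21, 5.31, 5.24 and 5.28. Of 109 cuticle protein genes 3 had a stage change at least 2-fold higher in the eGFP line and 5 at least 2-fold lower. Cpr49Ae read 5.50, 4.76, 4.86 and 4.86 in eGFP pupae, close to the limit, and 10.20 ± 0.20 (SD, n = 4) in Ubx pupae, so that the changes differed by -5.14 (SE 0.28, adjusted p = 8.36e-18). Cpr50Cb differed by -0.13 between the stages in the eGFP line and rose by 2.46 in the Ubx line. The junction gene nrv2 rose by 2.27 and 0.68, and Buffy by 4.14 and 2.46. The 22 ecdysone regulators had no member whose stage change differed by 2-fold between the lines. With 0.501% and 0.634% of all genes doing so, this is near the general share and does not set them apart.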

How the data were processed

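Wing RNA was hybridised to 48 single-colour Affymetrix Drosophila Genome 2.0 arrays, 4 in each of 12 groups taken from the sample titles. The deposited values are log2 signals per probe set, made by RMA per the submitters' processing notes, with version and settings not given in the sources used here. Arrays of different stages had different distributions in the deposited table, so all 48 were quantile normalised together before any comparison, which assumes that most signal did not shift in 1 direction.

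The table held 18952 probe sets, of which 18769 were tested once 183 control sets had been removed. Gene names came from the platform annotation supplied with the data: 13646 tested probe sets had 1 symbol, 402 several and 4721 none, giving 11981 genes, 1094 of them with more than 1 probe set. The brightest probe set over all arrays stood for a gene. Names can be old, and probe sets with several symbols were not named.

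Group means were fitted for all 12 groups at once with limma 3.58.1 in R 4.3.3 (36 residual degrees of freedom, moderated by eBayes), and p-values were adjusted over all 18769 probe sets. The differences of the stage change between temperatures and between lines were contrasts of the same fit. Tables and plots were made with Python 3.11.15, pandas 2.3.3, numpy 2.4.6 and matplotlib 3.10.9. The comparison of pupa with prepupa was tested on simulated data with 18769 probe sets and independent normal noise. It called 98.5% of 200 probe sets changed 1.5-fold and 100% of those changed 2-fold and 4-fold, with 3.71% false calls. Few probe sets were changed and the arrays were not rescaled there, whereas 65.3% of probe sets were called in the data. The simulation therefore does not measure false calls that come from scaling of the arrays. The labels call the 4 samples of a group biological replicates of pooled wings.

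The comparison, the 36 gene lists and the tests were chosen with earlier results of these data known. Named genes were nab, all ecdysone regulators, the 20 largest rises and falls with groups that do not overlap and a higher mean above the background limit, up to 6 called members per list, members that were not called, and the 5 largest positive and negative genes of each difference between changes. Genes named by number alone were mostly left out. Cpr49Ae, Cpr49Ah, Dad, Ddc, Dronc, Egfr, ImpE1, ImpL2, Mad, Mcm2, Mcm5, Timp, ac, dpp, fy, kkv, mmy, mys, pio, pot, sc, shg, sn, stw and tkv fall outside that rule and were chosen after their values were seen, as were knk and Cda5 in a plot and the genes and 6 lists of the other observations. The wing markers vg, nub, rn and dve were listed as such.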

Additional observations from a re-analysis of the deposited data

Results flagged for a closer look

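Among 228 genes named here, each read in the 4 prepupal and the 4 pupal samples, 23 of 456 sets of 4 held a sample whose gap to its nearest neighbour was wide enough to stand out by Dixon's test. Chance alone gives about 1 in 20 such sets, so that the number is near what chance gives. The sets were not spread evenly over the samples, with 10 for prepupal sample 1 against 2, 0 and 1 for prepupal samples 2 to 4. In pupae 5 were sample 1 and 4 were sample 4. Prepupal sample 1 was above the other 3 at Osi2 (13.08 against a mean of 12.93), TwdlT (14.13 against a mean of 14.09) and Twdlbeta (12.88 against a mean of 12.81). Prepupal sample 1 was below the other 3 at Bub3 (9.81 against a mean of 9.99), Cpr72Eb (9.53 against a mean of 11.27), Edg84A (13.72 against a mean of 14), Treh (9.81 against a mean of 10.14), aurB (7.33 against a mean of 7.45), exp (12.79 against a mean of 12.88) and stv (10.20 against a mean of 10.50). Prepupal sample 2 was below the other 3 at apolpp (6.39 against a mean of 7.19) and bs (8.71 against a mean of 8.87). Prepupal sample 4 was above the other 3 at twi (4.06 against a mean of 3.96). Pupal sample 1 was above the other 3 at CG4000 (7.21 against a mean of 5.28), Cpr49Ae (5.50 against a mean of 4.83), Hml (5.94 against a mean of 5.63) and Hr3 (2.96 against a mean of 2.87). Pupal sample 1 was below the other 3 at net (8.49 against a mean of 8.85). Pupal sample 3 was below the other 3 at Osi15 (3.48 against a mean of 3.58). Pupal sample 4 was above the other 3 at EcR (10.10 against a mean of 9.84), aop (11.25 against a mean of 11.13), twi (4.29 against a mean of 3.92) and knk (10.63 against a mean of 10.59).

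The pupa minus prepupa change differed between 29 and 19 °C by 2-fold or more, with a called interaction in limma, at 62 of the genes named here. Values are the change at 29 °C minus that at 19 °C (log2). The change was higher at 29 °C at CG13082 (5.59), Osi12 (4.36), Osi9 (3.65), Osi8 (3.61), ImpE1 (3.57), Cpr49Ah (3.56), tok (3.51), tyn (3.32) and Pgant9 (2.93). Further genes with the higher change at 29 °C were spir (2.92), Pdp1 (2.71), Cyp18a1 (2.26), GstZ1 (2.23), GstE6 (2.10), Obp99a (2.04), Hr3 (1.75), ImpE2 (1.74) and yellow-h (1.74). Positive and smaller were Cht5 (1.58), Mlc2 (1.53), dy (1.37), DAAM (1.35), GstE5 (1.30), GstE7 (1.26), bt (1.25), Rpt3R (1.23) and yellow-d (1.17). Positive values closest to 2-fold were Osi7 (1.10), tsh (1.09), Obp56a (1.07), LanA (1.06), Hr4 (1.04), Pvr (1.03), dyl (1.03) and cora (1.01). It was lower at 29 °C at Cpr72Eb (-6.10), CG6426 (-5.84), Cpr65Ec (-4.60), Edg91 (-4.35), Edg84A (-4.09), form3 (-3.32), Pu (-2.69), net (-2.08) and Osi20 (-1.95). Further genes with the lower change at 29 °C were Obp83cd (-1.91), bnb (-1.82), Twdlbeta (-1.72), Pgant2 (-1.47), Mmp2 (-1.45), Lst (-1.42), Osi19 (-1.39), stv (-1.39) and Obp83g (-1.34). Negative and smaller were Osi15 (-1.24), Eip93F (-1.20), Hr39 (-1.20), sens (-1.19), daw (-1.13), Treh (-1.10), wdp (-1.02), Tsp74F (-1.01) and hpo (-1.002).

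Between the lines at 29 °C the change differed in the same way at 21 of the genes, given as eGFP minus Ubx. The change was higher in the eGFP line at daw (3.73), Fbp2 (3.08), Qsox2 (1.69), Buffy (1.68), nrv2 (1.59), Cpr49Ah (1.22), serp (1.19), Cht5 (1.16), e (1.14) and Mlc2 (1.11). It was lower in the eGFP line at CG4000 (-5.90), Cpr49Ae (-5.14), js (-2.98), Lst (-2.62), Cpr50Cb (-2.59), Nna1 (-2.43), Cpr72Eb (-1.94), wdp (-1.71), Obp56a (-1.39), bt (-1.16) and Pgant9 (-1.15).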

How the results depend on the processing

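The 2-fold calls kept their direction under the other scalings, but not always their size. All 190 genes named here that were called at 2-fold kept direction and call under every alternative run: deposited values, arrays centred on their medians, only the arrays of the contrast, dim probe sets left out, an intensity trend with robust estimation, the replicate block, and each array left out in turn. Most of these genes were named for large differences in the same contrast, so that this result does not measure how stable other calls are. Among all 2894 probe sets called at 2-fold, 2619 were again called at 2-fold the same way on the deposited values and 2486 on centred arrays, and 0 changed sign. Scaling moved small differences, since the median over all probe sets was -0.258 on deposited values and 0.128 on centred arrays. Of the called probe sets 50.5% were higher, against 31.3% on deposited and 66.6% on centred values. The counts that moved by over 1.5 times were the rises by 2-fold or more on centred arrays (2801), the falls called on the deposited values (10982), all calls and falls with dim probe sets left out (8133 and 3819, from fewer probe sets), and, for the difference between lines on centred arrays, 1571 higher and 521 lower calls, where 52.0% of 2-fold calls were higher against 44.7%. Gene list results, which were counts and median differences, were scored as the same in 1195 cases and as moved in 107. The limit of 1.5 times does not describe the medians, which were scored as moved on smaller shifts. An example is the Osiris median, -3.045 without prepupal sample 2 against -3.179 with all arrays.

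The sign changed with scaling at 16 small stage differences. On centred arrays the difference was 0.25 at Egfr, 0.12 at Mcm5, 0.20 at ac, 0.58 at bs, 0.40 at dpp, 0.28 at ptc, 0.31 at rn, 0.48 at usp, 0.555 at LanA and 0.46 at Mmp2. On the deposited values it was -0.30 at Hr51, -0.24 at Osi12, 0.19 at bs, 0.010 at dpp, -0.19 at kkv, -0.017 at pio, -0.20 at pot, -0.38 at twi, 0.094 at usp and 0.17 at LanA. The difference of the stage change of Atg1 between temperatures was 0.0024 on centred arrays and 0.028 on the deposited values. Of the genes given above as not called, bs, e, fj, gce, hh, Kr-h1, LanA, Mmp2 and ptc passed the threshold on centred arrays, bs, Cpr50Cb, gce, hh, Hr38, Hr51, LanA, Osi8, Osi12 and twi on the deposited values, and chinmo with only the arrays of the contrast. The difference of the Hr4 stage change between temperatures lost its call on centred arrays (0.71), on the deposited values (0.73) and on leaving out most single arrays, and that of Cht5 between lines with only the arrays of the contrast (1.07). The cause was not tested.

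Leaving out single arrays moved a list's count of 2-fold changes by over 1.5 times in the Notch group (2 rises), in the fat body list (1 fall in place of 0, without prepupal sample 3 or 4 or pupal sample 2) and in the juvenile hormone binding protein family (1 rise in place of 2, without pupal sample 1). Leaving out an array of the groups compared gave 11788 to 11899 calls, with 5957 to 6033 higher and 5818 to 5866 lower, and 1617 to 1643 rises and 1260 to 1274 falls by 2-fold or more. For the difference between temperatures the range was 8292 to 8433 calls (3983 to 4095 higher, 4267 to 4362 lower), with 645 to 686 higher and 496 to 552 lower by 2-fold or more. For the difference between lines it was 1363 to 1894 (698 to 1032 higher, 665 to 862 lower), with 65 to 77 and 84 to 105 at 2-fold.

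With the replicate number as a block 12271 probe sets were called, against 12248 without it, and the 2-fold counts were again 1630 and 1264. The differences between temperatures and lines gave 8700 and 1688 calls under the block. Arrays of the same number did not deviate together (correlations of -0.035, -0.015, 0.037 and 0.0014 for numbers 1 to 4), and 1 of 4 prepupal arrays correlated best with the pupal array of its own number, so that the samples share only a number.

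Signal near background and at the top of the scale limits the size of many of the largest differences, and 4 arrays a group limit the precision. Cell numbers and protein were not measured.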

Other observations

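Some gene families and single genes outside the lists above were chosen after their values were seen and are given as descriptions. Of 34 glutathione S-transferase genes, whose enzymes attach glutathione to other compounds, 13 rose and 2 fell by 2-fold or more. That is 38.2% and 5.88%, against 10.8% and 8.23% of all genes. GstE5 read 3.59, 3.68, 3.42 and 3.75 in prepupae and 7.49, 7.45, 7.55 and 7.46 in pupae and rose by 3.88 (SE 0.09). GstZ1, GstE6 and GstE7 rose by 3.81, 3.74 and 3.04, whereas GstE1 fell by 2.98. Of 47 odorant-binding protein genes 35 were near background at both stages. Obp99a read 4.24, 4.12, 4.19 and 4.34 in prepupae and 9.80, 9.83, 9.12 and 9.12 in pupae. Obp99c and Obp99b rose by 4.99 and 4.15, the latter with a wide SE of 0.67. Obp83g and Obp83cd fell by 5.39 and 2.81. Enzymes that start O-linked sugar chains on secreted proteins moved both ways among 10 Pgant genes. Pgant2 read 11.80, 11.75, 11.86 and 11.82 in prepupae and 5.82, 5.93, 5.84 and 6.00 in pupae and fell by 5.91. Pgant8 fell by 4.66, while Pgant6 and Pgant9 rose by 2.89 and 2.68, the latter with a second probe set at -0.17. Among 27 serpin genes 5 rose and 6 fell by 2-fold or more, with 2 falls when arrays were centred on their medians, and Spn42Dd rose by 5.54.

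Of 8 circadian clock genes vri stood apart. It read 4.89, 4.60, 4.69 and 4.85 in prepupae and 11.15, 11.16, 11.05 and 10.98 in pupae, a rise of 6.32 (SE 0.17, adjusted p = 2.44e-31 in limma). Pdp1 fell by 3.94 and cwo by 1.27. The transcription factor gene slbo read 11.15, 10.82, 10.95 and 10.81 in prepupae and 4.29, 4.25, 4.26 and 4.16 in pupae and fell by 6.69. Qsox2 read 4.50, 4.23, 4.44 and 4.36 in prepupae and 10.73, 11.00, 10.78 and 10.81 in pupae and rose by 6.45. Rises of similar size were read at tnc (6.33) and Ktch (5.93).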
